A study of Mus musculus with 8 samples.

Results

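The p53 pathway target genes described here are 37 mouse genes: Trp53, which encodes p53, its regulators, and genes known as p53 targets in growth arrest, cell death, DNA repair or metabolism. All non-control probes that the array files name for these genes were taken, 49 probes of 39429 on the array. Of the 37 genes, 35 passed the filter on dim probes (42 of the 49 probes) and were tested among 18034 genes in all. The other two, Fas (a death receptor) and Thbs1 (a secreted inhibitor of vessel growth), were well above background on 5 of 8 arrays each but exceeded the common floor on none, so no change is given for them.

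The RNA came from E14 mouse embryonic stem cells (ESCs), grown without feeder cells, 72 hours after infection with lentivirus carrying a short hairpin RNA. The 4 groups of 2 biological replicates (A and B) were control KD (a hairpin against EGFP), Tip60 KD, Hdac6 KD and double KD, where KD stands for knockdown, so that every group had been infected and no group was left without virus. Tip60, encoded by Kat5, is the acetyltransferase of the Tip60-p400 chromatin complex, and Hdac6 is a deacetylase that the study examined as a partner of that complex. Each gene was targeted with 1 hairpin, which leaves effects of the hairpin sequence and of the lost protein joined.

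p53 is a transcription factor that is kept scarce by the ubiquitin ligase Mdm2, itself a p53 target, and by its relative Mdm4. DNA damage and other stresses stabilise p53, which then binds response elements and raises genes that stop the cell cycle, trigger apoptosis, repair DNA or change metabolism. Embryonic stem cells hold much p53 and express some of its targets even without added stress. Tip60 is known to acetylate p53 and to act as a coactivator of some of its targets.

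Values are log2 of the array signal divided by that array's 75th percentile, called the log2 signal here, and are comparable between arrays for 1 probe but not between probes. A gene was called when its adjusted p, from limma over all 18034 genes, was under 0.1, the threshold used by the study. In counts of genes, fell or lower means called lower, and rose or higher means called higher, unless another threshold is named. Kat5 signal was 39.2% of the control level in Tip60 KD and 40.4% in double KD, and Hdac6 signal was 17.8% in Hdac6 KD and 27.3% in double KD. Hdac6 signal also lay at 73.9% of control in Tip60 KD (adjusted p = 0.0062). Of 10 pluripotency markers, 3 were called higher in Tip60 KD, 2 with Hdac6 KD and 3 with double KD, where 1 was called lower. Of all genes tested, 19.7%, 14.0% and 15.9% were called higher in the same order, and 16.9% lower in double KD. Pou5f1, which encodes Oct4, rose by 1.01, 0.47 and 0.63 on the log2 scale (adjusted p = 0.0028, 0.045 and 0.017). The summed signal of the 8 markers with a value on every array ran from 320 to 355 times the 75th percentile. Of 8 feeder fibroblast markers, Postn, Dcn and Twist2 exceeded the floor on no array, and the sum over the list was 1.53 to 1.77 in control KD, 2.35 to 2.81 in Tip60 KD, 1.72 to 1.79 in Hdac6 KD and 2.61 to 2.64 in double KD. Of 7 endoderm markers, 2 were tested and 5, Gata6, Foxa2, Afp, Sox7 and Dab2 among them, exceeded the floor on no array, and the summed signal ran from 0 to 0.65 over the 8 arrays. Of 7 mesoderm and neural markers, T exceeded the floor on no array, and the sum was 2.06 to 2.28 in control KD, 4.27 to 4.85 in Tip60 KD, 2.58 to 3.10 in Hdac6 KD and 3.81 to 4.25 in double KD. Tubb3, a neuronal tubulin, was the 1 gene of this list called in Tip60 KD (log2 change 1.96, adjusted p = 0.00074), and without it the sum ran from 1.46 to 2.22 over all 8 arrays. The part of these cells in the changes below was not tested, and in bulk RNA fewer cells with a transcript and less transcript per cell cannot be told apart.

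The promoters of the members were searched for the p53 decamer, the repeated unit of a p53 response element, a run of 10 bases. The pattern searched was RRRCWWGYYY, where R is A or G, W is A or T and Y is C or T. This pattern is its own reverse complement, so a single search covers both strands. Only exact matches were counted, so decamers with a mismatch were missed and are not in capitals below. RefSeq promoters (GRCm38.p6, 250 bases before to 50 after each start) matched 28 of the 37 members with 40 promoters. Ddb2, Perp, Pmaip1, Rrm2b, Thbs1, Tnfrsf10b, Trp53inp1, Xpc and Zmat3 were not matched. At least 1 decamer was found in 11 of the 40 member promoters (27.5%) and in 8.36% of all 32851 promoters. A pair of decamers at most 13 bases apart was found in 1 member promoter, that of Cdkn1a, and in 24 promoters in all (0.0731%). The promoters of Ddit4, Gdf15, Bbc3 and Plk2, which are among the members with the largest changes below, held no exact decamer in this window. Sequences are shown for the 6 members described below by their values on every array whose promoter held a decamer before the start, so that the decamers near the start can be set beside their signals. A single decamer is not a whole response element, and of the 6 stretches that of Cdkn1a is the one with a pair. Decamers are in capitals and each line reads 5′ to 3′ on the gene's strand. The Cdkn1a stretch is chr17:29090881-29090962 (plus strand), with decamers 12 bases apart spanning -73 to -42 from the start, in 1 of its 2 promoters. The others are Ccng1 at chr11:40755437-40755496 (minus strand, decamer from -185), Mdm2 at chr10:117710910-117710969 (minus strand, from -186), Trp53 at chr11:69580259-69580318 (plus strand, from -75), Sesn1 at chr10:41887241-41887300 (plus strand, from -173, in 1 of its 2 promoters) and Polk at chr13:96519384-96519437 (minus strand, from -231, in 1 of its 2 promoters).
Cdkn1a: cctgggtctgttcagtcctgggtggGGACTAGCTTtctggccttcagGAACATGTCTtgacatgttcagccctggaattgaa
Ccng1: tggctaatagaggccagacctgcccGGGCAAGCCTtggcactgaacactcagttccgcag
Mdm2: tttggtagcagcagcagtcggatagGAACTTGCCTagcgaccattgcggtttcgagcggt
Trp53: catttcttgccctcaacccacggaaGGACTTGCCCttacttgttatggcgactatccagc
Sesn1: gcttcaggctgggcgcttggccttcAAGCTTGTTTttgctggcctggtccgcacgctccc
Polk: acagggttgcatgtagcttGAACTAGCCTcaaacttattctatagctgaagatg

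Trp53 and Mdm2 moved in opposite directions in all 3 knockdowns. The Trp53 probe (chr11:69404204-69404263, mm9) had a log2 signal of 1.66 and 1.58 on the control KD arrays, 2.26 and 2.17 with Tip60 KD, 2.25 and 2.24 with Hdac6 KD and 2.16 and 2.07 with double KD. All 6 knockdown arrays lay above both control arrays. Trp53 signal rose 1.51-fold in Tip60 KD (log2 change 0.59 ± 0.08 SE), 1.54-fold with Hdac6 KD and 1.41-fold with double KD, with adjusted p = 0.0037, 0.0060 and 0.0093.

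Mdm2 (chr10:117126010-117126069) had a log2 signal of 3.70 and 3.51 on the control KD arrays, 2.80 and 2.56 with Tip60 KD, 3.14 and 2.81 with Hdac6 KD and 3.03 and 2.81 with double KD. The control arrays were again apart from the 6 others, now above them. Mdm2 fell to 52.7%, 64.6% and 62.1% of control in Tip60, Hdac6 and double KD, with adjusted p = 0.0080, 0.041 and 0.028. The Hdac6 KD call was lost under 5 of 20 alternatives. Leaving out the first control array or the second Hdac6 KD array lost it (log2 changes -0.54 and -0.47). So did a low floor, no filter on dim probes and a fit of only the arrays compared (adjusted p = 0.113, 0.114 and 0.106). The double KD call was lost under 2 of 20, without the first control array or the second double KD array. Mdm4 was called lower in Tip60 KD (log2 change -0.81) and double KD (-0.40), but its other probe that passed the filter had a change of 0.01 in Tip60 KD (adjusted p = 0.96 over all probes that passed). Trp73, the p53 relative, was at the floor on 2 arrays and was not called (changes of 0.29, 0.52 and 0.49).

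Against control KD, most members had a log2 change below 0 in each knockdown, called or not. In Tip60 KD, 22 of 35 members were called lower, against 20.1% of all genes tested, and 4 were called higher, against 19.7%. In Hdac6 KD, 15 fell, against 14.9% of all genes, and 3 rose, against 14.0%. In double KD, 18 fell, against 16.9%, and 2 rose, against 15.9%. The median log2 change of the members was -0.52, -0.34 and -0.40 in the same order, while the medians of all genes were 0.06, 0.03 and 0.05. These 3 comparisons share the control arrays. With the replicate letter, which is also the slide, as a block in limma, 30, 27 and 29 members were called. The shares of all genes are for the fit without a block. A member described as not called is so in that fit, unless the block is named. Each group, control KD and knockdowns alike, stood at the same position on both slides, so position and group cannot be told apart in any comparison. Every member called in these comparisons changed in the same direction on both slides. The calls were made on the same arrays and favour such genes, so this is no separate support. In Hdac6 KD the count of 18 called members was 11 without the first control array, 10 without the first Hdac6 KD array and 9 without the second.

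**Figure D1:**
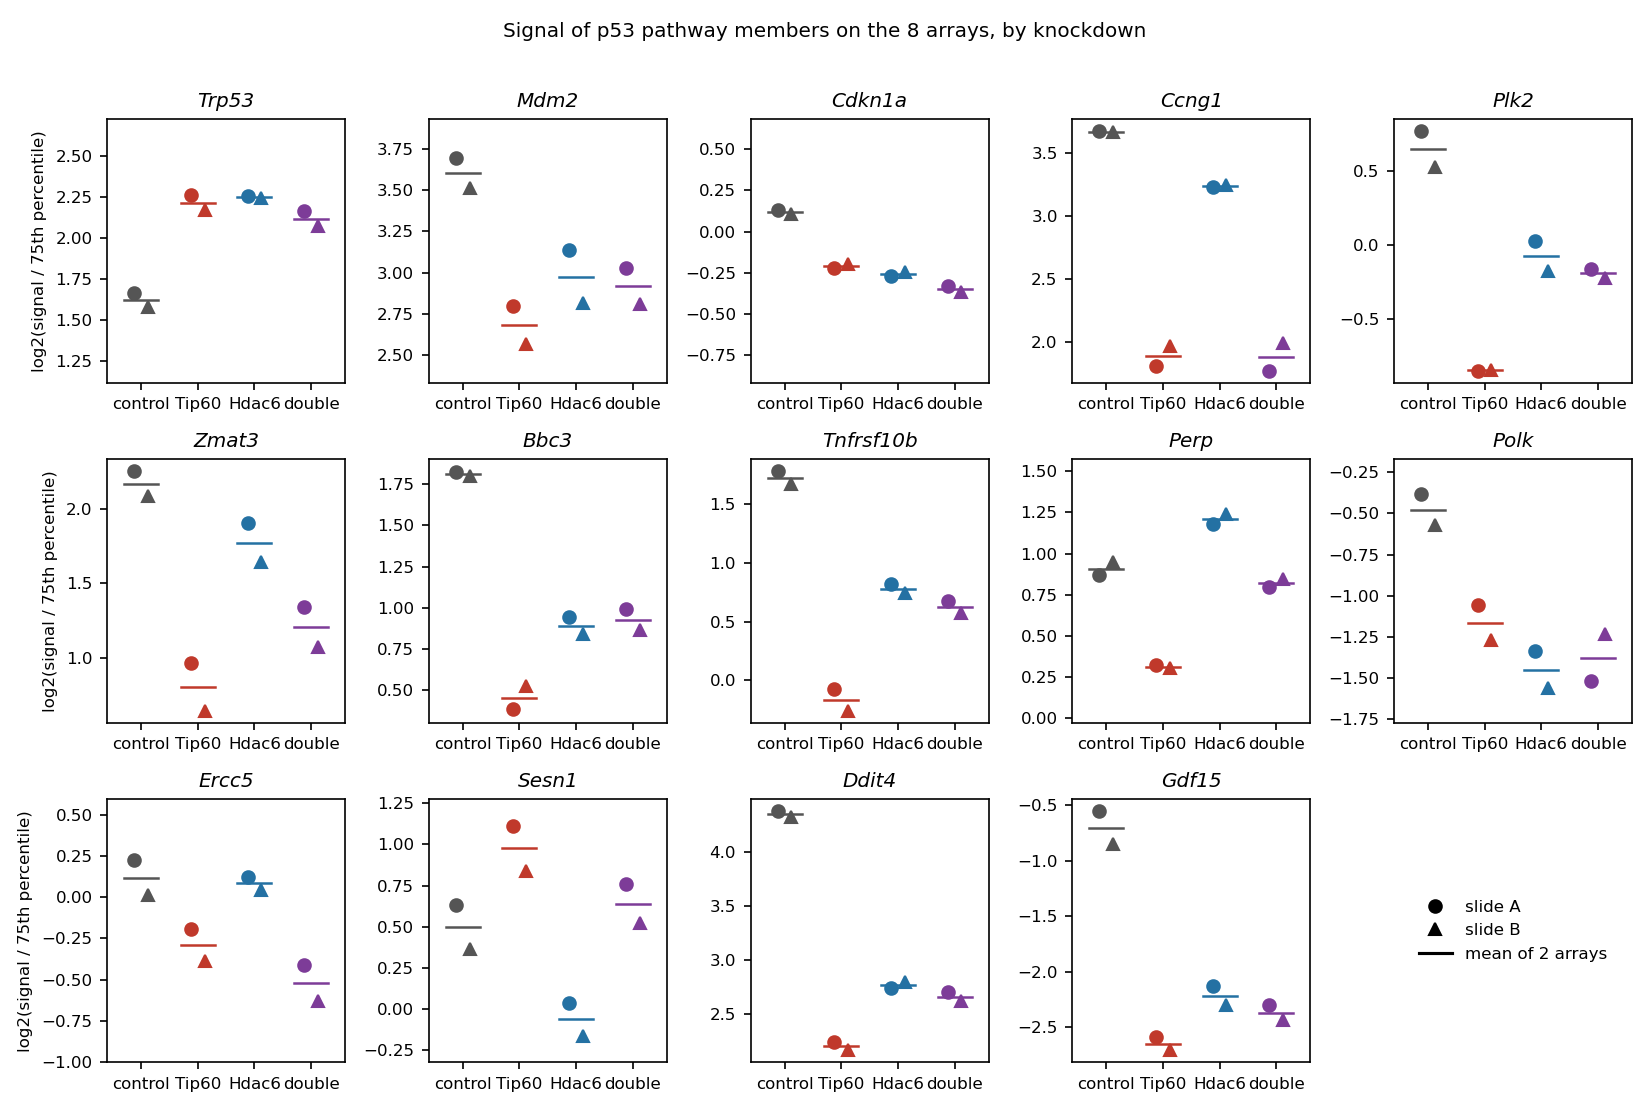
Log2 signal (relative to the array's 75th percentile) of the 14 members described by value, 1 panel a gene with its own vertical range, on the 8 arrays; circles are slide A, triangles slide B and lines the mean of 2 arrays. Ccng1 in double KD sits at its Tip60 KD level (1.77 and 1.99 against 1.80 and 1.97), Bbc3 and Ddit4 in double KD sit near their Hdac6 KD levels, and Perp and Sesn1 move apart in the single knockdowns.

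Among the 7 arrest and growth control genes, 6 fell in Tip60 KD, 3 with Hdac6 KD and 5 with double KD, and none rose. With limma at an unadjusted p under 0.05, the count of those that rose was also 0 in each. By adjusted p, 20.1%, 14.9% and 16.9% of all genes fell in the same order, and 19.7%, 14.0% and 15.9% rose. Ccng1 (cyclin G, which recruits a phosphatase to Mdm2; chr11:40562427-40562486) had a log2 signal of 3.68 and 3.67 on the control KD arrays, 1.80 and 1.97 with Tip60 KD, 3.23 and 3.25 with Hdac6 KD and 1.77 and 1.99 with double KD. The Tip60 KD and double KD arrays overlapped and lay far below the other 4. Ccng1 fell to 29.0%, 74.2% and 28.8% of control in Tip60, Hdac6 and double KD (adjusted p = 0.00060, 0.036 and 0.0010). The Hdac6 KD call was lost under 8 of 20 alternatives (adjusted p = 0.0078 to 0.217 over all 20). These were leaving out either control or either Hdac6 KD array, a common background, quantile normalisation, the series matrix values and a low floor.

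Plk2 (a polo-like kinase; chr13:111190915-111190974) had a log2 signal of 0.77 and 0.52 on the control KD arrays, -0.85 and -0.85 with Tip60 KD, 0.03 and -0.18 with Hdac6 KD and -0.16 and -0.23 with double KD. It was lowest in Tip60 KD, and the Hdac6 KD and double KD arrays overlapped between that level and control. Plk2 signal was 35.4%, 60.7% and 55.8% of control in Tip60, Hdac6 and double KD (adjusted p = 0.00094, 0.011 and 0.0061).

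Zmat3 (an RNA-binding zinc finger protein; chr3:32233831-32233890) had a log2 signal of 2.25 and 2.08 on the control KD arrays, 0.97 and 0.64 with Tip60 KD, 1.90 and 1.64 with Hdac6 KD and 1.34 and 1.07 with double KD. The 4 groups did not overlap. Its log2 changes were -1.36 in Tip60 KD and -0.96 in double KD (adjusted p = 0.0027 and 0.012), while that of -0.40 in Hdac6 KD was not called (adjusted p = 0.156). With the replicate letter as a block, the Hdac6 KD change was called (adjusted p = 0.0048, in a range of 0.0048 to 0.516 over 20 alternatives).

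Cdkn1a (p21, the cyclin-dependent kinase inhibitor; chr17:29237377-29237436), a classic arrest target, changed far less. Its log2 signal was 0.13 and 0.11 on the control KD arrays, -0.22 and -0.20 with Tip60 KD, -0.27 and -0.24 with Hdac6 KD and -0.33 and -0.36 with double KD. Both arrays of a group lay close together, with the control arrays above the other 6. Cdkn1a fell to 79.7%, 77.1% and 72.5% of control (adjusted p = 0.015, 0.016 and 0.0071), and none of these calls held when it was averaged with its dimmer second probe (adjusted p = 0.117, 0.231 and 0.102, the highest of 20 alternatives each). That probe was at the floor on the slide A array of every group, so the averages depend on the floor. The remaining arrest genes had smaller changes. Gadd45a fell in Tip60 KD (-0.52) and double KD (-0.62). Btg2 fell in Tip60 KD (-0.40). Plk3 was not called, with changes of -0.50, -0.51 and -0.50. With the replicate letter as a block in limma, Plk3 was called lower in all 3 (adjusted p = 0.030, 0.033 and 0.032). So were Gadd45a in Hdac6 KD (-0.30, adjusted p = 0.0088) and Btg2 in double KD (-0.30, adjusted p = 0.035).

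Among the 12 death genes tested, 8 fell and 1 rose in Tip60 KD, 6 fell and 1 rose in Hdac6 KD, and 7 fell and 0 rose in double KD, where the count that rose at an unadjusted p under 0.05 in limma was 0 as well. By adjusted p, 20.1%, 14.9% and 16.9% of all genes fell in the same order, and 19.7%, 14.0% and 15.9% rose. Tnfrsf10b (the TRAIL death receptor; chr14:70184141-70184200) had a log2 signal of 1.78 and 1.67 on the control KD arrays, -0.07 and -0.26 with Tip60 KD, 0.82 and 0.74 with Hdac6 KD and 0.68 and 0.57 with double KD. The groups did not overlap and Tip60 KD was lowest. Tnfrsf10b signal was 27.1%, 52.1% and 46.8% of control (adjusted p = 0.00054, 0.0038 and 0.0021).

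Bbc3 (PUMA, a BH3-only activator of apoptosis; chr7:16903403-16903462) had a log2 signal of 1.82 and 1.80 on the control KD arrays, 0.38 and 0.52 with Tip60 KD, 0.94 and 0.84 with Hdac6 KD and 0.99 and 0.86 with double KD. It was again lowest in Tip60 KD, with Hdac6 KD and double KD overlapping. Bbc3 signal was 39.0%, 52.8% and 54.1% of control (adjusted p = 0.00074, 0.0034 and 0.0031).

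Perp (a desmosome protein with a part in p53-dependent death; chr10:18576697-18576756) had a log2 signal of 0.87 and 0.95 on the control KD arrays, 0.32 and 0.30 with Tip60 KD, 1.18 and 1.24 with Hdac6 KD and 0.80 and 0.85 with double KD. It was the one death gene called in opposite directions in the single knockdowns. Perp fell by 0.60 on the log2 scale in Tip60 KD (adjusted p = 0.0028) and rose by 0.30 in Hdac6 KD (adjusted p = 0.036), and was not called in double KD (-0.09, adjusted p = 0.47). The Hdac6 KD call was lost under 4 of 20 alternatives (adjusted p = 0.0082 to 0.171).

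Other death genes that fell in all 3 knockdowns were Apaf1, the core of the apoptosome (log2 changes -0.92, -0.58 and -0.77), Aen, an apoptosis-enhancing nuclease (-0.63, -0.34 and -0.55), Trp53inp1, a p53-induced nuclear protein (-1.18, -0.54 and -0.76), and Cyfip2 (-0.84, -0.50 and -0.49). The other probe of Trp53inp1 that passed the filter had changes of -0.65, -0.59 and -0.39, the last of them not called (adjusted p = 0.23). Phlda3, an inhibitor of Akt, fell in Tip60 KD (-0.63) and double KD (-0.28), and Ei24 rose in Tip60 KD (0.40). Of the genes that act directly in the mitochondrial death pathway, Bbc3 and Apaf1 fell in all 3 knockdowns, as given above. Pmaip1 (NOXA), Bax and Bcl2 were called in none. Their changes ran from -0.15 to 0.06, from -0.27 to -0.10 and from 0.10 to 0.24 respectively, and Bcl2 was at the floor on 4 arrays.

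**Figure D2:**
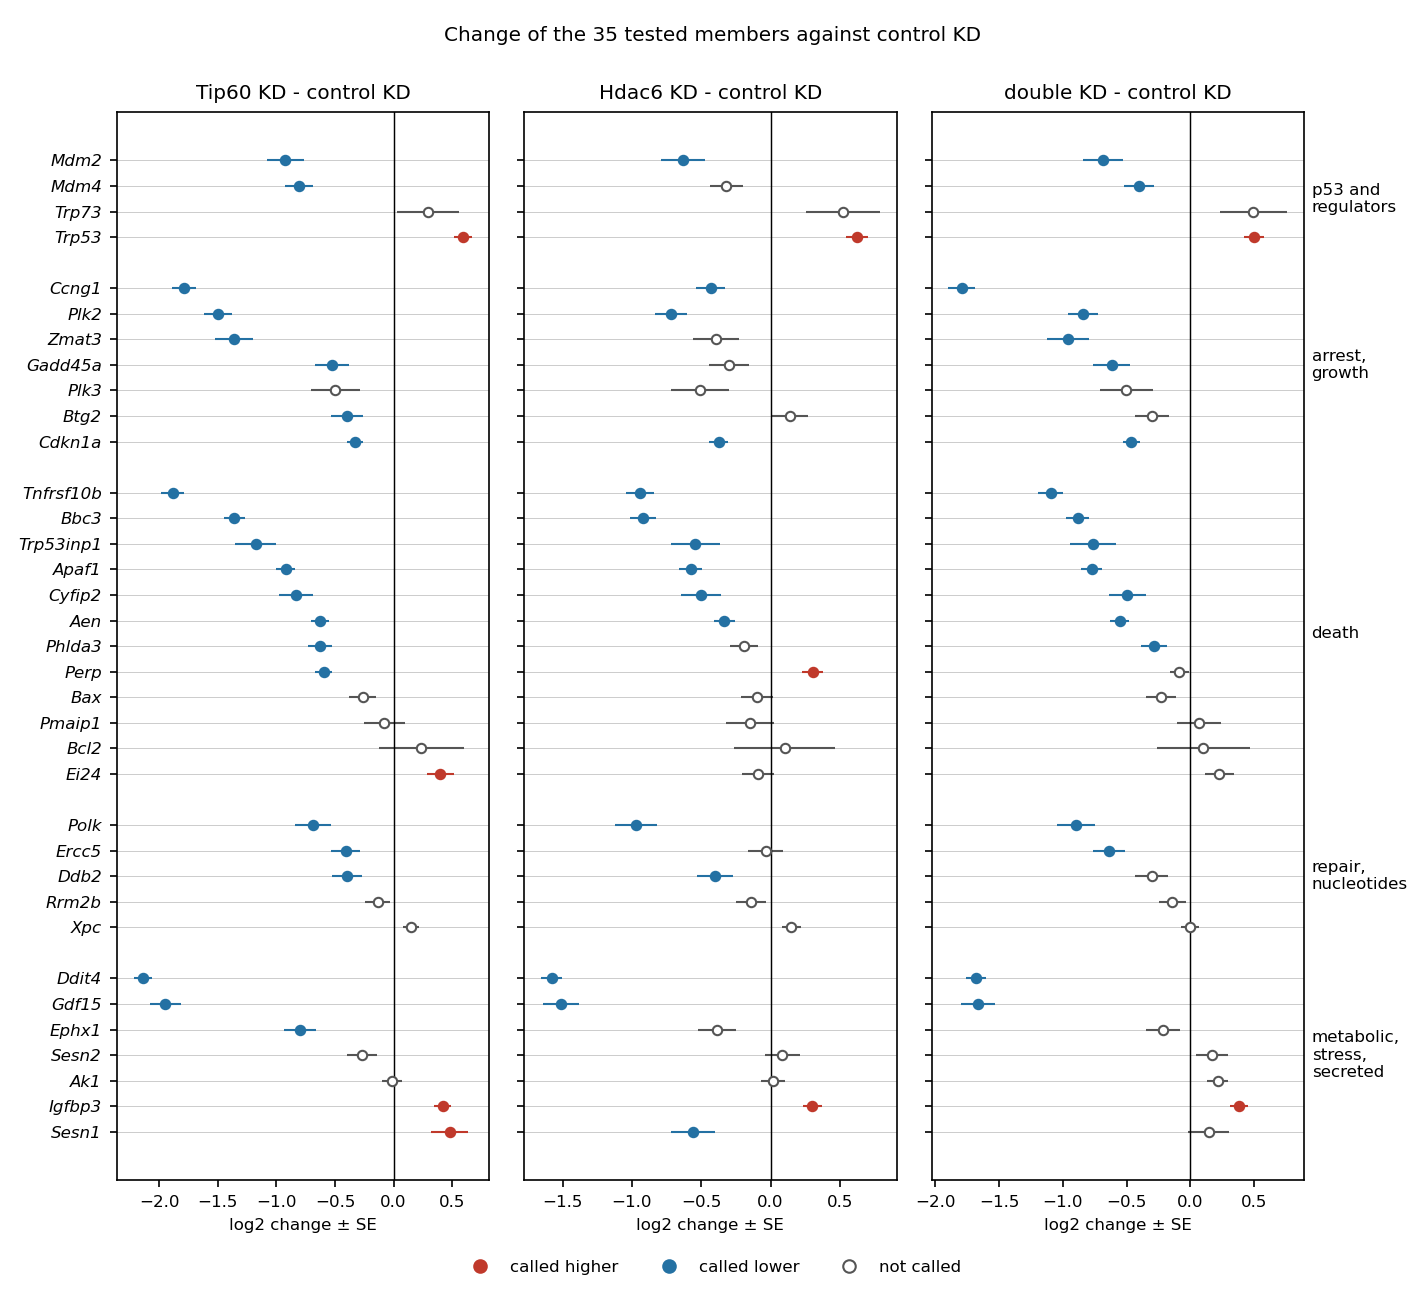
Log2 change against control KD with its SE for the 35 tested members (horizontal axes), grouped by class; filled blue points were called lower, filled red points higher and open points were not called. Most points lie left of 0 in each panel, with Ddit4 at -2.14 in Tip60 KD farthest left and Trp53 right of 0 in all 3.

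Among the 5 genes of repair and nucleotide supply, 3 fell in Tip60 KD, 2 with Hdac6 KD and 2 with double KD, and none rose, also at an unadjusted p under 0.05 in limma. By adjusted p, 20.1%, 14.9% and 16.9% of all genes fell in the same order, and 19.7%, 14.0% and 15.9% rose. Polk (a translesion DNA polymerase; chr13:97251653-97251712) had a log2 signal of -0.38 and -0.57 on the control KD arrays, -1.05 and -1.27 with Tip60 KD, -1.34 and -1.56 with Hdac6 KD and -1.52 and -1.23 with double KD. All 6 knockdown arrays lay below the control arrays. Polk signal was 62.1%, 50.9% and 53.6% of control (adjusted p = 0.018, 0.010 and 0.011).

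Ercc5 (the XPG nuclease of nucleotide excision repair; chr1:44237384-44237443) had a log2 signal of 0.22 and 0.01 on the control KD arrays, -0.19 and -0.39 with Tip60 KD, 0.12 and 0.05 with Hdac6 KD and -0.41 and -0.63 with double KD. The Hdac6 KD arrays lay within the range of control, and the other 4 below it. Ercc5 had log2 changes of -0.41, -0.03 and -0.64 in Tip60, Hdac6 and double KD (adjusted p = 0.055, 0.91 and 0.017), and 6 of 20 alternatives lost the Tip60 KD call (adjusted p = 0.0029 to 0.229). Ddb2, a damage sensor of the same pathway, fell in both single knockdowns (-0.40 in each). Xpc, which senses damage beside it, was not called (0.15, 0.15 and -0.01). Rrm2b, which supplies nucleotides for repair, was at the floor on 6 arrays and was not called.

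The 7 metabolic, stress and secreted genes that were tested held Ddit4 and Gdf15, the 2 members with the largest decreases in Tip60 KD and in Hdac6 KD. In Tip60 KD, 3 fell and 2 rose, in Hdac6 KD 3 fell and 1 rose, and in double KD 2 fell and 1 rose. Of all genes, 20.1%, 14.9% and 16.9% fell in the same order, and 19.7%, 14.0% and 15.9% rose. Ddit4 (REDD1, an inhibitor of mTORC1 signalling; chr10:59412486-59412545) had a log2 signal of 4.38 and 4.32 on the control KD arrays, 2.24 and 2.17 with Tip60 KD, 2.74 and 2.80 with Hdac6 KD and 2.71 and 2.62 with double KD. No groups overlapped. Ddit4 signal was 22.7%, 33.5% and 31.1% of control (adjusted p = 0.00041, 0.0011 and 0.00079).

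Gdf15 (a secreted stress cytokine; chr8:73153293-73153352) had a log2 signal of -0.55 and -0.85 on the control KD arrays, -2.59 and -2.71 with Tip60 KD, -2.13 and -2.30 with Hdac6 KD and -2.30 and -2.43 with double KD. The second Tip60 KD array was at the floor, so the Tip60 KD decrease depends on where the floor lies. Its changes were -1.95, -1.51 and -1.67 (adjusted p = 0.00074, 0.0026 and 0.0017).

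Sesn1 (sestrin, which links p53 to mTORC1 and antioxidant defence; chr10:41628012-41628071) had a log2 signal of 0.63 and 0.37 on the control KD arrays, 1.11 and 0.84 with Tip60 KD, 0.04 and -0.16 with Hdac6 KD and 0.76 and 0.52 with double KD. Its order was the reverse of that of Perp: Tip60 KD was highest, Hdac6 KD lowest, and control KD and double KD overlapped. Sesn1 rose by 0.48 in Tip60 KD (adjusted p = 0.068), fell by 0.56 in Hdac6 KD (adjusted p = 0.057) and was not called in double KD (0.14). Over 20 alternatives its adjusted p ran from 0.0011 to 0.26 in Tip60 KD and from 0.0012 to 0.244 in Hdac6 KD, and 8 and 7 of them lost the call. Igfbp3, a secreted binder of insulin-like growth factors, was called higher in all 3 knockdowns (0.42, 0.30 and 0.38), but both control arrays were at the floor and these changes depend on it. Ephx1, an epoxide hydrolase, was lower in Tip60 KD by its brighter probe (-0.80), while its other probe had a change of 0.18 (adjusted p = 0.62). Sesn2 and Ak1 were not called in any of the 3.

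Comparisons between knockdowns use no control array, but in them too each group had its own position on the slides. Between the single knockdowns, 14 of 35 members were lower in Tip60 KD than in Hdac6 KD, against 11.3% of all genes, and 2 were higher, Sesn1 and Ei24, against 12.1%. The median log2 difference of the members was -0.30, and that of all genes was 0.02. By size, the leading members were Ccng1 (-1.36 ± 0.10 SE, adjusted p = 0.0028), Sesn1 (1.04, adjusted p = 0.012), Zmat3 (-0.97, adjusted p = 0.016), Tnfrsf10b (-0.94, adjusted p = 0.0046), Perp (-0.90, adjusted p = 0.0031) and Plk2 (-0.78, adjusted p = 0.011). Lower calls fell on 4 of 7 arrest genes, 7 of 12 death genes, 2 of 7 metabolic genes and 1 of 4 regulators (Mdm4), and on none of the 5 repair genes, of which 1 was lower at an unadjusted p under 0.05 in limma. The other probe of Mdm4 went the opposite way (0.39, adjusted p = 0.067, against -0.49 for the probe used), and that of Trp53inp1, counted here as lower with -0.63, had a difference of -0.06 (adjusted p = 0.96). Trp53 itself did not pass the test between these groups (-0.04 ± 0.08 SE). The count of 16 called members was 10 without the first Tip60 KD array, 7 without the first Hdac6 KD array and 8 without the second.

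**Figure D3:**
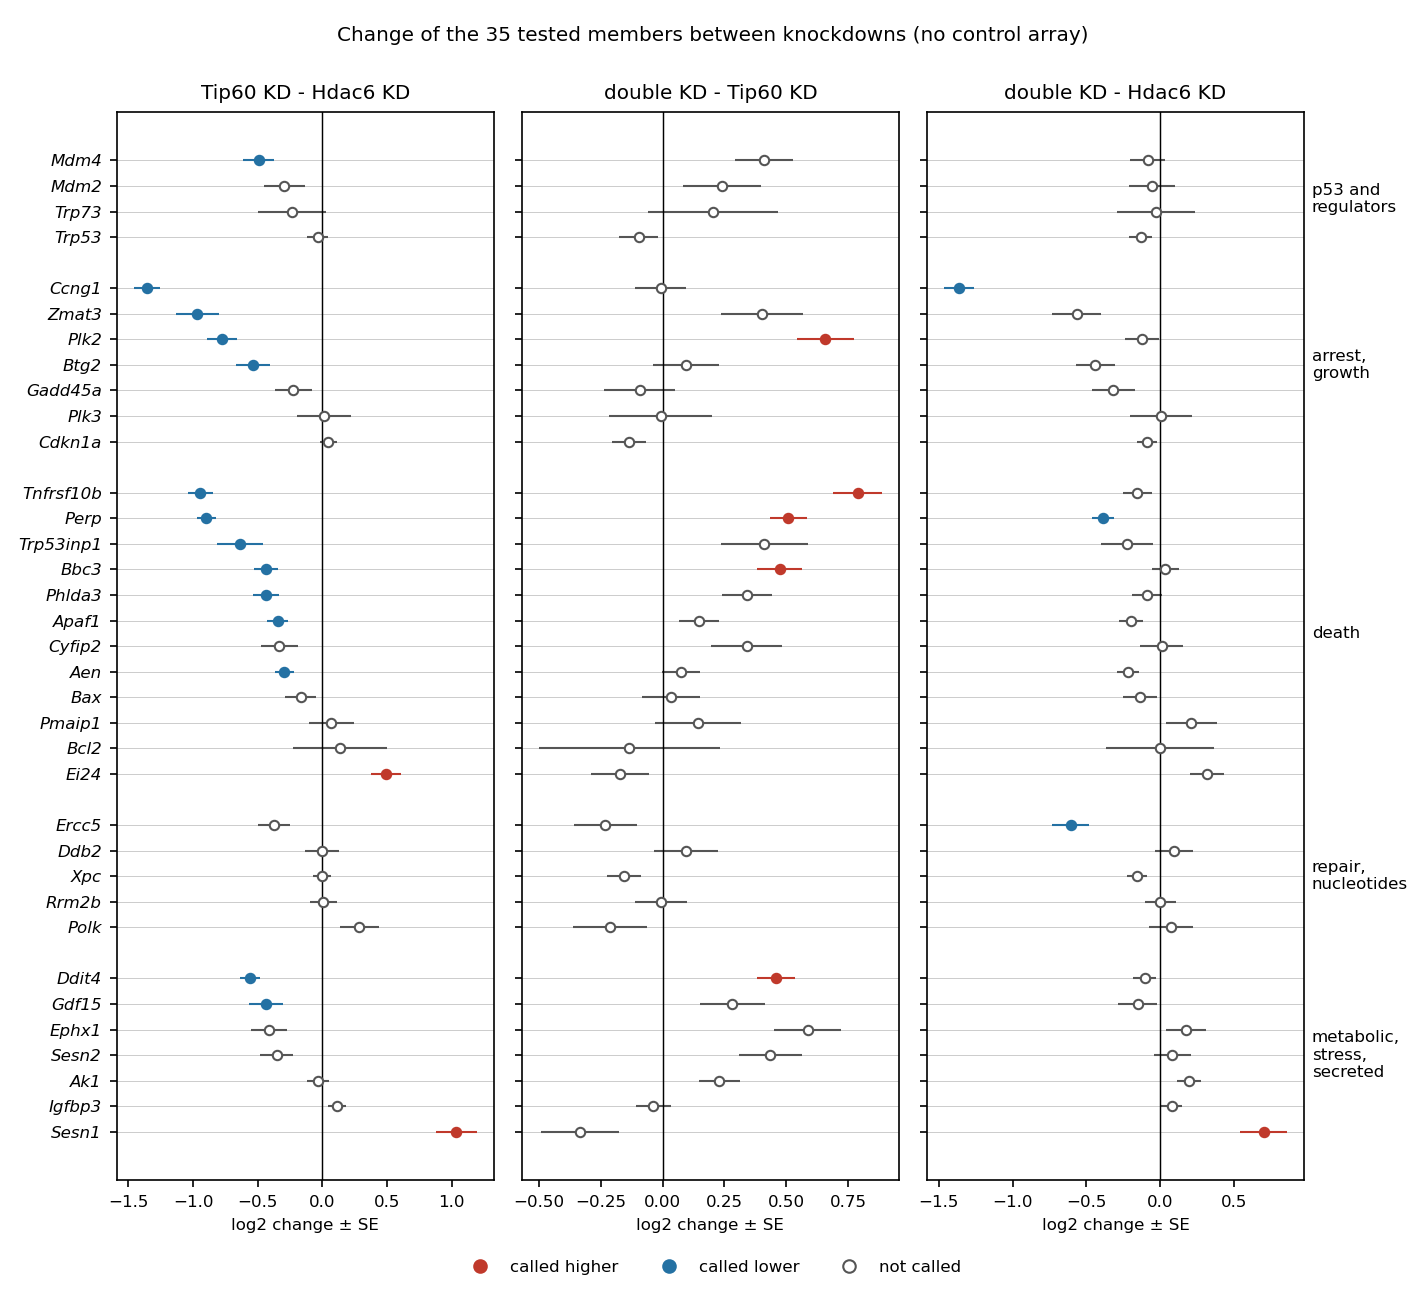
Log2 difference with its SE between pairs of knockdowns for the 35 tested members, none using a control array, each panel with its own horizontal range; filled blue points were called lower, filled red points higher and open points were not called. Ccng1 is called lower in the left and right panels (-1.36 in each), and the 5 called members of the middle panel all have their higher level in double KD.

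Double KD against Hdac6 KD compares cells with and without the Tip60 hairpin in the presence of the Hdac6 hairpin. Hdac6 signal was not equal in these groups (17.8% of control in Hdac6 KD and 27.3% in double KD), and its part in the differences was not tested. In it, 3 members were lower, against 4.75% of all genes, and 1 was higher, against 5.38%. The lower members were Ccng1 (-1.36 ± 0.10 SE, adjusted p = 0.0055), Ercc5 (-0.61, adjusted p = 0.055) and Perp (-0.39, adjusted p = 0.044), and the higher member was Sesn1 (0.70, adjusted p = 0.066). Each of these 4 was also called in the same direction in Tip60 KD against control KD, which shares no array with this comparison. The share of all genes called in the same direction in both was not computed, so this count has no background to set it against. Over the 35 members, the 2 sets of changes had the same sign for 23 (65.7%, against 56.7% of all 18034 genes). Pearson r was 0.46 across the members and 0.33 across all genes, and Spearman rho across the members was 0.43. Genes are not independent replicates, and their values come from arrays of the same 2 slides. Mdm2, Ddit4, Tnfrsf10b, Bbc3 and Plk2 had differences of -0.06, -0.10, -0.16, 0.04 and -0.12 here, and the 95% intervals of the difference were -0.45 to 0.33 for Mdm2 and -0.19 to 0.26 for Bbc3. With the replicate letter as a block, 12 members were called, 9 of them lower, which added Btg2, Gadd45a, Zmat3, Apaf1, Aen and Xpc to the lower ones. The shares of all genes given above are for the fit without a block and cannot be set against these counts. Without either Hdac6 KD array or either double KD array, 1 member was called.

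Double KD against Tip60 KD compares cells with and without the Hdac6 hairpin in the presence of the Tip60 hairpin. Kat5 signal stood at 39.2% and 40.4% of control in Tip60 KD and double KD, while Hdac6 signal stood at 73.9% and 27.3%. In it, 5 members were higher, against 1.14% of all genes, and 0 were lower, against 2.56%. At an unadjusted p under 0.05 in limma these counts were 10 and 0. The 5 were Tnfrsf10b (0.79 ± 0.10 SE, adjusted p = 0.054), Plk2 (0.66, adjusted p = 0.077), Perp (0.51, adjusted p = 0.065), Bbc3 (0.47, adjusted p = 0.085) and Ddit4 (0.46, adjusted p = 0.074). Of these, 4 (Tnfrsf10b, Plk2, Bbc3 and Ddit4) had been called lower in Hdac6 KD against control KD, which shares no array with this comparison, and Perp had been called higher in it. The share of all genes called in both, in the same or opposite directions, was not computed. Over the 35 members the 2 sets of changes had the same sign for 14 (40.0%, against 44.6% of all genes). Pearson r was -0.32 across the members and -0.07 across all genes, and Spearman rho across the members was -0.31. Ccng1 had a difference of -0.01, with a 95% interval of -0.26 to 0.25, and Trp53 one of -0.10, with an interval of -0.29 to 0.10. With the replicate letter as a block, 17 members were called, 15 of them higher. The shares of all genes given above are for adjusted p without a block. They cannot be set against the block counts or the unadjusted counts. No member was called in this comparison by limma when any 1 of the 8 arrays was left out, while 7 to 12 members were then higher at an unadjusted p under 0.05.

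The interaction compares the log2 change of double KD with the single changes added together, as the first less the second, so a positive value for a gene that fell in both means that the double knockdown fell by less than that sum. Of the 35 members, 15 were called with a positive interaction, against 11.1% of all genes, and 3 with a negative one, against 10.9%. The median over the members was 0.41 and that over all genes -0.03. The largest were those of Ddit4 (2.04 ± 0.11 SE, adjusted p = 0.0050), Gdf15 (1.79, adjusted p = 0.0085), Tnfrsf10b (1.73, adjusted p = 0.0074) and Bbc3 (1.39, adjusted p = 0.0076). For Gdf15, the single changes (-1.95 and -1.51) added to the control mean of -0.70 lie below the floor of -2.71. With this floor its interaction could only be positive, so it cannot show whether the changes add. Trp53 had a negative interaction (-0.72, adjusted p = 0.017), and its signal in double KD did not exceed that in the single knockdowns. Ccng1, for which double KD matched Tip60 KD, had an interaction of 0.42 that was not called (adjusted p = 0.117). Perp and Sesn1 were not called either (0.21 and 0.22), and their double KD changes of -0.09 and 0.14 lay between those of the single knockdowns. The interaction uses the control arrays. Its count of 18 calls was 10 without either control array, 9 without the second Tip60 KD array, 11 and 7 without the first and second Hdac6 KD arrays, and 10 without the first double KD array.

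**Figure D4:**
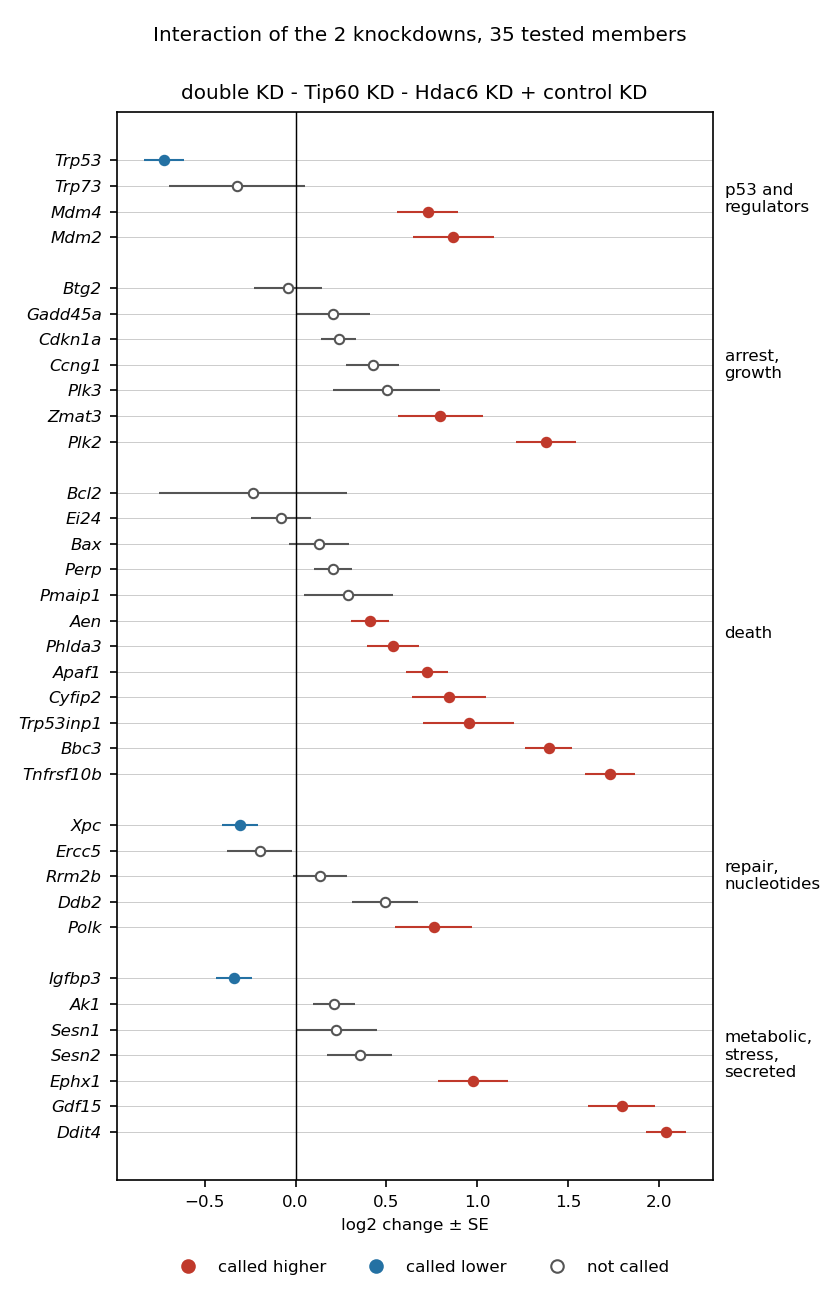
Interaction of the knockdowns on the log2 scale with its SE for the 35 tested members, grouped by class and ordered by value; filled red points were called above 0, filled blue points below 0 and open points were not called. Ddit4 (2.04) lies farthest right and Trp53 (-0.72) farthest left, and 7 of the 12 death genes are called above 0, against 11.1% of all genes.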

How the data were processed

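Total RNA from 8 cultures was amplified, labelled with Cy3 and hybridised to Agilent 1-colour whole-genome mouse arrays, 1 per culture. Per the file headers, the deposited intensity values come from Agilent Feature Extraction 10.7.1.1, whose processed signal has a background subtracted and no scaling between arrays. The authors also deposited log2 values in a series matrix, which ranked probes as the median signal did on each array (Spearman rho 1) and were used as an alternative. Spots with outlier marks were set to missing, and spots of 1 probe were averaged. Of 43020 non-control spots, 21896 to 40609 per array were well above background, no spot was saturated, and the subtracted background had a median of 37.2 to 114.3. Control KD had the fewest such spots on each slide (31179 on A and 21896 on B). It also had the highest background, 61.0 on slide A against 37.2 to 39.4 in the knockdowns, and 114.3 on slide B against 41.4 to 89.0.

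Processed signal was divided by the array's 75th percentile, raised to a floor of 0.153 (-2.71 on the log2 scale) and log2-transformed. For each array the dimmest signal called well above background was found, and the floor is the highest of these limits. A probe was kept if 2 or more arrays had it well above background and over the floor, and a gene took its probe of highest mean signal. Of all values, 8.86% lay at the floor. limma 3.58.1 in R 4.3.3 fitted all 4 groups with no block (4 residual and 1.84 prior degrees of freedom), with 2-sided tests and Benjamini-Hochberg adjustment over 18034 genes. The pipeline was tested on simulated data. The number of arrays limits the precision.

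Each slide held 1 array of each group, and the replicate letter is also the slide. Differences of A minus B correlated at 0.650 to 0.799 over the 6 pairs of groups, so the letters were taken to pair the arrays and the block was fitted as an alternative. Values on all arrays are given for Trp53, Mdm2, Cdkn1a and Ccng1, for the 6 called members of largest change in each comparison of 2 groups, and for the 4 of largest interaction. The members, their classes and the other lists were chosen with earlier results of these data known. Probe positions are on mm9, from the files, and promoters on GRCm38.p6. The figures were drawn with matplotlib in Python.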

Additional observations from a re-analysis of the deposited data

Results flagged for a closer look

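The effect of Tip60 KD differed with and without Hdac6 KD, by the interaction term in limma, for 18 of the 35 members tested. Of all genes tested, 22.0% were called for this term. A positive value says that the double knockdown fell by less, or rose by more, than the sum of the single changes, and control arrays enter each value. All values here are on the log2 scale. Of the metabolic, stress and secreted genes, the interaction was 2.04 for Ddit4, 1.79 for Gdf15, 0.98 for Ephx1 and -0.34 for Igfbp3. Of the death genes, it was 1.73 for Tnfrsf10b, 1.39 for Bbc3, 0.95 for Trp53inp1, 0.84 for Cyfip2, 0.72 for Apaf1, 0.54 for Phlda3 and 0.41 for Aen. Of the arrest genes, it was 1.38 for Plk2 and 0.80 for Zmat3. Of p53 and its regulators, it was 0.87 for Mdm2, 0.73 for Mdm4 and -0.72 for Trp53. Of the repair genes, it was 0.76 for Polk and -0.31 for Xpc. The other probes of 3 of these genes had interactions of 0.20 for Mdm4 (adjusted p = 0.48), -0.20 for Ephx1 (adjusted p = 0.75) and 0.86 for Trp53inp1 (adjusted p = 0.104), none of them called. Igfbp3 was at the floor on both control arrays and Gdf15 on the second Tip60 KD array. The control level of Gdf15 with both single changes added lies below the floor, so its interaction could only be positive. With 2 arrays a group, no group was large enough to test for a single array far from the others.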

How the results depend on the processing

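The direction of the 14 members described by value changed under no alternative that called them. Ddit4, Gdf15, Tnfrsf10b, Bbc3, Plk2 and Trp53 stayed called under all 20 alternatives in each comparison with control KD, and under all 19 in the interaction. Leaving out 1 array changed the count of called members from 26 to 23 to 25 in Tip60 KD, from 18 to 9 to 19 in Hdac6 KD and from 20 to 14 to 20 in double KD, each against control KD. It gave 7 to 16 in place of 16 for Tip60 KD against Hdac6 KD, 0 in place of 5 for double KD against Tip60 KD, 1 to 5 in place of 4 for double KD against Hdac6 KD and 7 to 13 in place of 18 for the interaction. Where a group kept 1 array, its spread was taken to be that of the other groups. A floor at the lowest of the arrays' limits lowered the counts to 10 in Hdac6 KD against control KD, 7 in Tip60 KD against Hdac6 KD, 0 in double KD against Tip60 KD, 1 in double KD against Hdac6 KD and 7 in the interaction. A fit of only the arrays compared gave 9, 0 and 0 in the 3 comparisons between knockdowns. A threshold of 0.05 gave 0, 2 and 10 in double KD against Tip60 KD, double KD against Hdac6 KD and the interaction. Double KD against Tip60 KD had 3 calls with normexp background correction, 8 with quantile normalisation and 2 with the series matrix values, which gave 2 in double KD against Hdac6 KD as well. In Tip60 KD against control KD, 1 member was called higher with normexp and 1 with a common background, in place of 4. The count called lower was 22 in each, as in the main fit. Wherever the count for double KD against Tip60 KD was 0, 7 to 12 members were higher at an unadjusted p under 0.05. Where the low floor, a fit of fewer arrays or a left-out array moved a count, the cause was not tested. The replicate block gave 17 calls in double KD against Tip60 KD and 12 in double KD against Hdac6 KD, and moved no other count by over 1.5 times. Shares of all genes are given for the main fit alone, not for the counts under alternatives. Counting only the 30 members above the floor on all 8 arrays, which was chosen after seeing the data, left 24, 16, 18, 15, 5, 4 and 16 calls in the order of the comparisons above. Of 35 members, 5 had a value at the floor, where a change has only a bound.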

Other observations

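Of 30 further genes known as p53 targets, 23 were tested. In Tip60 KD, 7 fell and 3 rose (20.1% and 19.7% of all genes), with a median log2 change of -0.25. In Hdac6 KD 5 fell and 4 rose (14.9% and 14.0% of all genes), and in double KD 6 fell and 4 rose (16.9% and 15.9%). The largest called changes in Tip60 KD were those of Psrc1, a microtubule regulator (-1.29, adjusted p = 0.00061), Tnfaip8 (-1.27, adjusted p = 0.0035), the drug efflux pump Abcb1a (1.22, adjusted p = 0.0012) and the ubiquitin ligase Siah1a (-0.99, adjusted p = 0.0035). Between knockdowns, 6 were lower and 3 higher in Tip60 KD than in Hdac6 KD (11.3% and 12.1% of all genes).

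Of 30 kinases and other genes that act upstream of p53, all 30 were tested. In Tip60 KD 8 rose and 6 fell (19.7% and 20.1% of all genes), with a median change of -0.03. In Hdac6 KD 9 rose and 4 fell (14.0% and 14.9%), and in double KD 5 rose and 6 fell (15.9% and 16.9%). The largest called changes in Tip60 KD were those of the lysine methyltransferase Setd7 (-1.33, adjusted p = 0.0012), the kinase Hipk2, which phosphorylates p53 (1.23, adjusted p = 0.0036), the corepressor Trim28 (0.95, adjusted p = 0.0022) and the deacetylase Sirt1 (0.79, adjusted p = 0.012). In double KD against Tip60 KD, 0 genes of either list were called by limma. At an unadjusted p under 0.05, 3 rose and 6 fell among the upstream genes, and 3 rose and 3 fell among the targets.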
